A study of Mus musculus with 6 samples.

Results

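The Zbtb and Hivep genes are the mouse genes whose symbol begins with Zbtb and a digit, or is Hivep1, Hivep2 or Hivep3, with pseudogenes left out. Of the 53379 genes counted, 45 carried such a symbol, and 42 of them had enough reads to be tested among 16929 genes. They are followed here in Min6, a mouse insulinoma line, in RNA that came down with an antibody against hnRNPK (3 hnRNPK IP libraries) and in total RNA of the lysate (3 libraries). All 6 libraries came from cells at passage 31 held for 30 h at 25 mM glucose with palmitic acid at 500 µM, which the labels call glucolipotoxicity, so untreated cells are not part of the comparison. hnRNPK is an RNA-binding protein that prefers C-rich single-stranded RNA, and the question is which of these transcripts were more, and which less, frequent in the IP than in the lysate. No control IP was analysed here, and binding to hnRNPK cannot be told apart from recovery for other reasons. The labels do not say that replicate libraries stem from separate cultures, so their spread, and every test that rests on it, may be technical.

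Membership follows the symbols alone, but the family itself was chosen on values of this same contrast, in which Zbtb20 and Hivep3 stood high. Fold changes, calls and counts of the members are therefore a description, given without p-values, and support no statement about the family as a whole. "Enriched" and "depleted" mean a Benjamini-Hochberg adjusted p under 0.05 over all 16929 genes in edgeR's quasi-likelihood test. Fold changes are log2 values of IP minus total RNA with their standard error (SE). Levels are in CPM, each library's counts scaled to a common total, with TMM factors that set the libraries against one another, as mean ± SD of 3 libraries. No spiked RNA ties IP to lysate, so every change is relative, and in bulk RNA fewer cells with a transcript and less of it per cell cannot be told apart.

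Zbtb proteins join an N-terminal BTB domain, through which they pair with themselves or each other and recruit corepressors and histone deacetylases, to C-terminal C2H2 zinc fingers that read DNA. Most act as repressors, and many set cell fate in blood, brain and bone. The Hivep proteins, also known as Schnurri after their Drosophila relative, are very large, carry widely separated pairs of zinc fingers, bind sites like those of NF-kB, and take part in BMP and immune signalling. In beta cells Zbtb20 is known as a repressor of Fbp1, a gluconeogenic enzyme whose loss from the beta cell favours insulin secretion.

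The 45 symbols hold 40 Zbtb zinc finger genes, 3 Hivep genes and 2 that encode no such factor. Zbtb8os encodes archease, a cofactor of tRNA ligation, and Zbtb11os1 is an antisense transcript that shares 489 exonic bases, 36.2% of its length, with Zbtb11. The longest annotated coding sequence of each zinc finger gene was translated, and matches to a C2H2 pattern were counted. The pattern was 2 cysteines 2 to 4 residues apart, then 2 histidines 3 to 5 residues apart after a loop of 12. Matches, which need not equal the number of fingers, ran from 1 in Zbtb5, Zbtb9, Zbtb22 and Zbtb43 to 14 in Zbtb17 and Zbtb41. Zbtb16 had 9 and each Hivep protein 4.

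hnRNPK binds runs of C, and 3' UTRs are common places for them. Shown are the stretches of 24 bases with the most bases in runs of at least 3 C, whatever their other C, in the longest annotated 3' UTR of the 3 Hivep genes, of the 4 Zbtb genes with the highest and of the 4 with the lowest fold change among those with at least 5 CPM and a 3' UTR of at least 100 nucleotides, in GENCODE M21. Capitals mark these runs, read 5′ to 3′ on the strand of the gene. The first 3 are Hivep genes, the next 4 the highest Zbtb genes and the last 4 the lowest.
Hivep3: ctCCCCtCCCCCtCCCCCtCCCCC
Hivep1: ataacaggtttttttgaaaaaCCC
Hivep2: tcatttccacatttCCCCCtCCCC
Zbtb20: ttcctCCCCCCttcctCCCttCCC
Zbtb37: CCCCCCCgCCCtgctCCCCtCCCC
Zbtb7a: aggCCCgCCCgtaCCCCgCCCCCC
Zbtb4: aCCCtCCCCgagtCCCCtCCCCCC
Zbtb42: tCCCtCCCtCCCtcaCCCaaCCCC
Zbtb5: ccatctggatgCCCaaggccaCCC
Zbtb48: gtagaCCCCtgCCCggatggCCCC
Zbtb12: gaggctgggggcggtcctgggCCC

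In GRCm38 the Hivep3 stretch lies at chr4:120136374-120136397 on the plus strand, 2023 bases into a 3' UTR of 3694. Those of Zbtb7a (chr10:81150709-81150732) and Zbtb4 (chr11:69779436-69779459) are also on the plus strand, and that of Zbtb37 (chr1:161011056-161011079) is on the minus strand. Zbtb20 has its stretch at chr16:43635560-43635583 on the plus strand. The 4 highest Zbtb genes held 12 to 18 bases in such runs and Hivep3 held 19. Hivep1, with a 3' UTR of 513 bases, held only 3 (chr13:42184543-42184566, plus strand) although it was enriched, and Hivep2 held 9 (chr10:14149757-14149780, plus strand). The Zbtb42 stretch (chr12:112682195-112682218, plus strand) held 16 although the gene was depleted, while Zbtb12 (chr17:34896629-34896652, plus strand) held 3, Zbtb5 (chr4:44992522-44992545, minus strand) 6 and Zbtb48 (chr4:152019804-152019827, minus strand) 11. Over all tested genes with a 3' UTR of at least 100 bases the median was 9 and 23.4% of 13041 reached 12, and over the 39 such zinc finger members the median was 10 and 33.3% reached 12. A longer 3' UTR offers more stretches to choose from, and a match is a run of letters, not a measured binding site.

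The libraries held 38764925 to 52735957 counts, and replicate spread beyond counting noise (edgeR's biological coefficient of variation) came to 27.6% for the IP and 11.6% for total RNA. Beta cell markers gave 7425 to 9703 CPM in sum over 8 genes in the IP and 24970 to 36200 in total RNA. Ins1, Ins2, Iapp and Chga were lower in every IP library than in any of total RNA, while Pdx1, Nkx6-1, Mafa and Slc2a2 were higher. The 6 immune markers, kept because many Zbtb factors are best known from blood cells, summed to at most 2.89 CPM in any library, with Cd3e and Cd4 at 0 reads. The 4 exocrine and duct markers reached at most 1.21 CPM, with Prss1 and Cpa1 at 0 reads, and the 4 stromal and endothelial ones 5.16 to 6.74 CPM in the IP and 1.87 to 2.56 in total RNA. Gcg, Sst and Ppy of other islet cells summed to 122 to 171 CPM in the IP and 133 to 167 in total RNA. Nearly all of this was Gcg, with Sst at most 0.364 and Ppy at most 2.62 CPM in any library.

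Most members of the family were expressed, and 28 of the 42 tested were called, in both directions. That share was near the 62.4% of all genes called in either direction. Zbtb20, Hivep3 and Zbtb37 were about 8 to 9 times as high in the IP, and Zbtb17 was 3.31-fold lower. Of the 42 tested, 19 were enriched (28.9% of all genes were), 9 were depleted (33.6% of all genes) and 14 were not called. With library totals in place of TMM factors, which moves the median of all genes from −0.07 to −0.51, the counts were 12 enriched (20.4% of all genes under that scaling) and 11 depleted (43.0%). At least 2-fold, 11 were enriched (19.6% of all genes) and 3 depleted (24.5%). In 30 of the 42 the groups did not overlap, a share like that of all genes (71.4%). The IP was higher in 21 (32.2% of all genes) and lower in 9 (39.3%). The members' median log2 fold change was 0.41, and that of all tested genes −0.07; with library totals alone the members' median was −0.03. The 40 tested zinc finger members had a median 3' UTR of 2604 bases against 1328 for all tested genes.

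**Figure D1:**
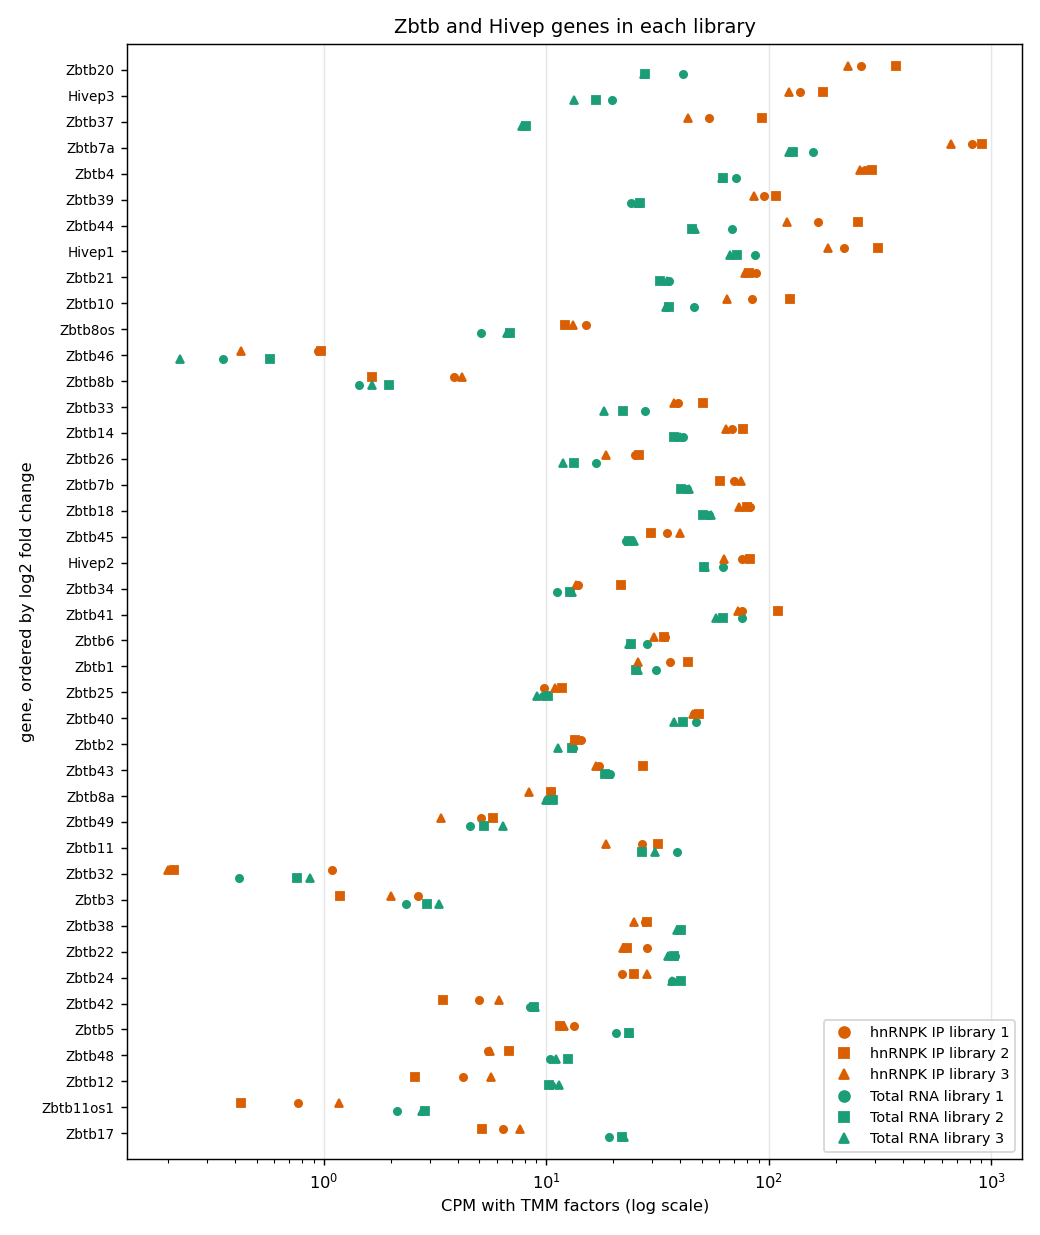
CPM with TMM factors in each of the 6 libraries (log scale) for the 42 tested members, ordered by log2 fold change, with orange for hnRNPK IP and green for total RNA and one symbol per library number. The groups stand apart at both ends of the order, from Zbtb20 at the top to Zbtb17 at the bottom, and mix in the middle, where IP libraries 2 and 3 often lie farthest from each other.

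All 3 Hivep genes were enriched, over a wide range, though the call of Hivep2 depended on the fit. Hivep3, known in mouse bone as Schnurri-3, a brake on bone formation that acts on Runx2, lies on chromosome 4 (119733784 to 120138045, plus strand, ENSMUSG00000028634.17). It had 138, 176 and 123 CPM in IP libraries 1, 2 and 3 and 19.7, 16.8 and 13.4 in total RNA libraries 1, 2 and 3. The lowest IP library was thus far above the highest total RNA library. The log2 fold change was 3.13 ± 0.19 (SE), 8.76-fold, and stayed between 2.36 and 3.31 over the alternatives, lowest with the offset for gene length.

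Hivep1, the founding member, named for binding an enhancer of HIV, lies on chromosome 13 (42052021 to 42192537, plus strand, ENSMUSG00000021366.8). Its IP libraries held 217, 309 and 184 CPM and its total RNA libraries 86.3, 72.3 and 67.1, a log2 fold change of 1.66 ± 0.20 (SE). IP library 2 was high and IP library 3 low, but all 3 exceeded total RNA. Hivep2 (Schnurri-2), which in mice takes part in BMP-driven adipogenesis, lies on chromosome 10 (13966075 to 14151374, plus strand, ENSMUSG00000015501.10).

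Hivep2 stood at 75.9, 82.2 and 62.6 CPM in the IP libraries against 62.1, 51.0 and 51.9 in total RNA. The lowest IP library and the highest total RNA library nearly met. Its log2 fold change of 0.42 ± 0.13 (SE) lost its call in 4 of 6 fits that left out a library, at 0.35 and 0.33 without IP replicate 1 or 2 and at 0.40 and 0.41 without total RNA replicate 2 or 3. It turned to −0.02, not called, with library totals alone. With the offset for gene length it was called depleted, at −0.24. The 3 paralogs thus covered the whole span from the top of the family to the edge of the call. Their longest 3' UTRs measured 3694 bases in Hivep3, 1638 in Hivep2 and 513 in Hivep1, and held 27.5%, 16.2% and 13.3% C. The order of their fold changes followed neither measure, since Hivep1 lay above Hivep2.

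Zbtb20 had the highest fold change of the family. It is a large gene of chromosome 16 (42875881 to 43642602, plus strand, ENSMUSG00000022708.16) with 21 annotated transcripts and a longest 3' UTR of 23858 bases. It had 260, 375 and 228 CPM in IP libraries 1, 2 and 3 and 41.1, 27.9 and 27.6 in total RNA libraries 1, 2 and 3. Every IP library lay far above the highest total RNA library, although both groups were uneven, with IP library 2 and total RNA library 1 high. The log2 fold change was 3.16 ± 0.24 (SE), 8.93-fold, and 2.18 to 3.41 over the alternatives, lowest with the offset for gene length.

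Zbtb37 had 54.1, 93.2 and 43.5 CPM in the IP against 8.02, 8.09 and 7.74 in total RNA. Total RNA libraries were almost alike, and IP library 2 was about 2 times IP library 3. The log2 fold change was 3.00 ± 0.28 (SE). Of its exonic bases, 15.6% are shared with Serpinc1 on the opposite strand, whose reads cannot be told apart without a known strand setting.

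Zbtb7a (also LRF or Pokemon), a repressor of fetal globin and a switch of lymphoid fate, was the most abundant member in both kinds of RNA. It stood at 820, 906 and 659 CPM in the IP libraries against 158, 128 and 124 in total RNA, a log2 fold change of 2.54 ± 0.15 (SE). The groups lay far apart. Its relative Zbtb7b (ThPOK), which commits T cells to the CD4 lineage, changed less, with 69.4, 60.2 and 75.2 CPM against 42.9, 40.3 and 43.6 (0.69 ± 0.11, SE). Library totals alone ended that call, at 0.26. Both have C-rich 3' UTRs, with 23.2 CCCC tetramers per kb in Zbtb7a and 22.8 in Zbtb7b, overlapping matches counted on the sense strand, where the median over all tested genes was 3.49. Among genes with a 3' UTR of at least 100 bases, such a tetramer occurred there in 86.4% of 13041 tested genes and in 35 of 42 zinc finger members, of which 3 were not tested.

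The factors that bind methylated CpG split. Zbtb4 held 271, 292 and 258 CPM in the IP libraries against 71.5, 62.4 and 61.7 in total RNA, with little spread in either group (2.07 ± 0.10, SE). Zbtb33 (Kaiso), on the X chromosome, had 39.2, 50.6 and 37.3 CPM against 27.9, 22.0 and 18.2 (0.90 ± 0.19, SE), and lost its call with library totals alone, at 0.46. Zbtb38 went the other way. It held 27.7, 28.3 and 24.7 CPM in the IP libraries against 39.3, 40.4 and 38.6 in total RNA, a log2 fold change of −0.55 ± 0.11 (SE). The fit with the length offset put it at −1.14. These 3 relatives share a way of reading DNA, and their transcripts were enriched in 2 cases and depleted in 1.

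Other enriched members lay between. Zbtb39 averaged 96.4 ± 11.1 CPM over the IP libraries against 25.4 ± 1.14 over total RNA (SD, n = 3), a log2 fold change of 1.92 ± 0.11 (SE). Zbtb44 had 167, 251 and 121 CPM against 68.0, 45.2 and 46.6 (1.76 ± 0.28, SE). Zbtb10, which in human cells binds variant telomere repeats, had 84.4, 125 and 64.7 CPM against 45.9, 35.7 and 34.7 (1.23 ± 0.24, SE). In both, IP library 2 was about 2 times IP library 3, and total RNA library 1 stood above the other two. Zbtb21 had 82.4 ± 4.62 against 34.4 ± 1.69 CPM (SD, n = 3 each; 1.26 ± 0.10, SE). Zbtb14, whose human protein binds that of Zbtb21, followed at 0.82 ± 0.10 (SE). Zbtb18 (RP58), a repressor needed for cortical neurons, was at 0.56 ± 0.09 (SE), and library totals alone ended its call, at 0.13. The remaining enriched zinc finger genes, Zbtb6, Zbtb26 and Zbtb45, had log2 fold changes of 0.38 to 0.73. Zbtb6 and Zbtb26 share 449 exonic bases on the same strand, which leaves their split of reads uncertain, and with library totals alone Zbtb6 turned to −0.06. Zbtb6 also lost its call without the filter on low counts (0.34), without IP replicate 1 (0.31) or 3 (0.36) and without total RNA replicate 2 (0.37) or 3 (0.36). Zbtb26 lost its call with library totals alone (0.29) and with the length offset (0.28), and Zbtb45 with library totals alone (0.12).

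Of the 9 depleted members 3 fell at least 2-fold. Zbtb17 (Miz1), the partner through which Myc represses cell cycle inhibitors, was the lowest. It lies on chromosome 4 (141444654 to 141467930, plus strand, ENSMUSG00000006215.12). It held 6.41, 5.16 and 7.61 CPM in the IP libraries against 19.2, 22.0 and 22.4 in total RNA, a log2 fold change of −1.73 ± 0.19 (SE). The groups were far apart. Its longest annotated 3' UTR is the shortest of the tested zinc finger members, at 99 bases.

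Zbtb12 had 4.22, 2.58 and 5.66 CPM against 10.5, 10.2 and 11.4 (−1.36 ± 0.29, SE), and the offset for gene length took it to −0.66. Zbtb48 (TZAP), a telomere-binding protein that trims long telomeres in human and mouse cells, had 5.96 ± 0.752 against 11.3 ± 1.05 CPM (SD, n = 3 each; −0.93 ± 0.19, SE). Zbtb24, mutated in a human immunodeficiency with unstable centromeres, had 21.9, 24.8 and 28.4 CPM against 36.9, 40.4 and 36.7 (−0.60 ± 0.13, SE). Zbtb5 was at −0.87 ± 0.14 and Zbtb22 at −0.59 ± 0.13 (SE), and with the length offset Zbtb22 was no longer called, at −0.12. Zbtb42 (−0.85 ± 0.25, SE) was not called once total RNA replicate 1, 2 or 3 was left out, at −0.83, −0.80 and −0.79. Opposite-strand genes share 13.0% of the exonic bases of Zbtb5 (1700055D18Rik), 9.25% of those of Zbtb33 (Tmem255a) and 7.97% of those of Zbtb12 (C2).

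Of the 2 members that are no zinc finger genes, Zbtb8os held 15.1, 12.1 and 13.2 CPM in the IP libraries against 5.11, 6.87 and 6.69 in total RNA (1.12 ± 0.19, SE). It shares 264 exonic bases with Zbtb8a on the opposite strand, which itself was not called (−0.07 ± 0.17, SE) but was called depleted with library totals alone (−0.51) and enriched with the length offset (0.55). Zbtb11os1 was depleted at −1.71 ± 0.46 (SE) on 87 IP and 434 total RNA reads. Its call ended without total RNA replicate 2 (−1.59) or 3 (−1.62) and with the offset for gene length (−0.73).

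**Figure D2:**
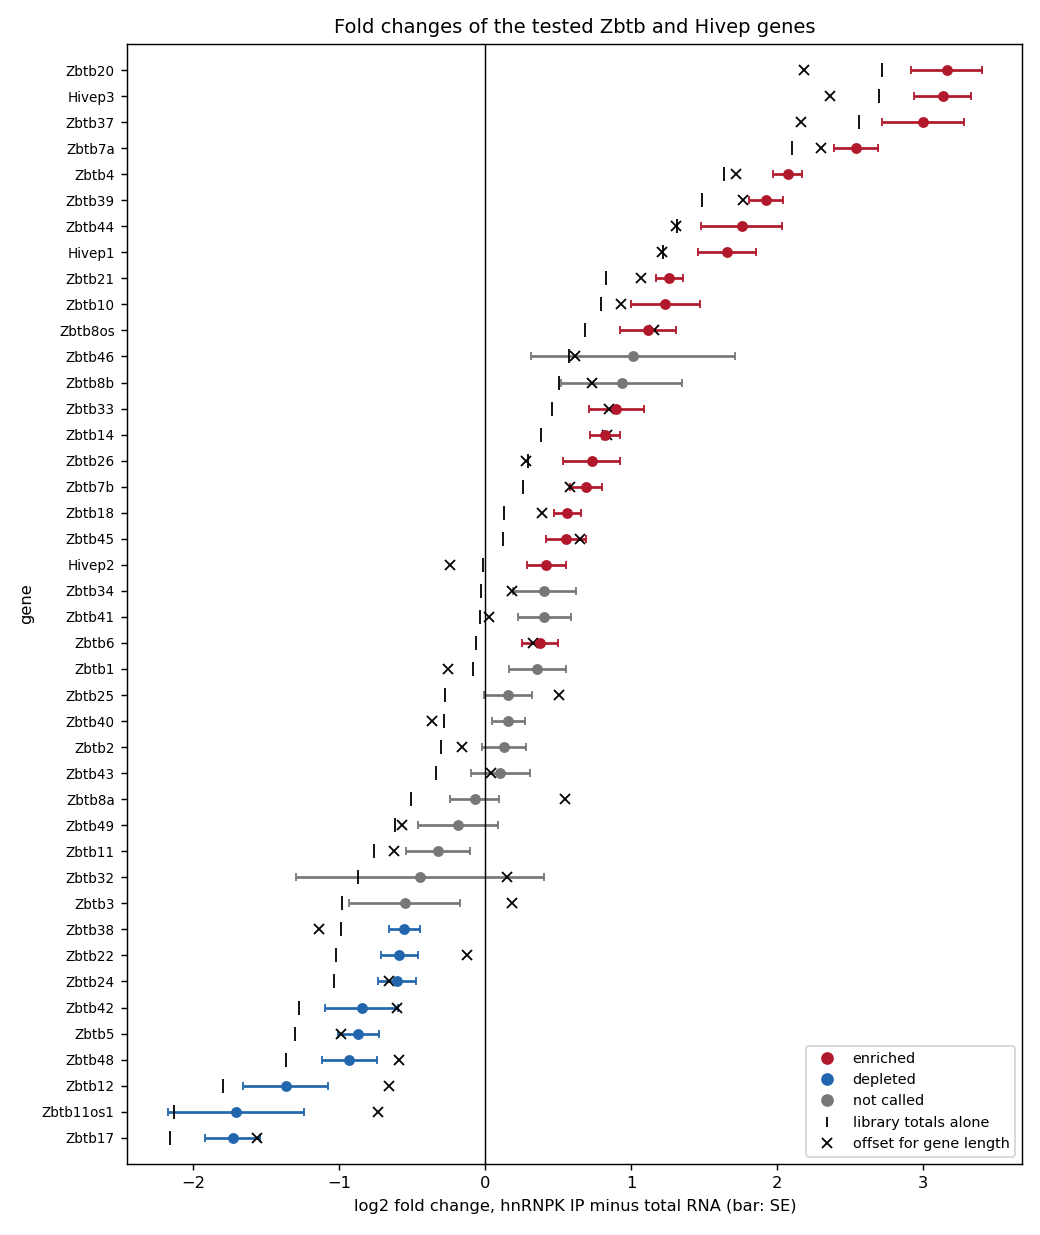
Log2 fold change, IP minus total RNA, with SE for the 42 tested members, coloured by call, with a bar mark for the value under library totals alone and a cross for the value with the offset for gene length. Values run from 3.16 for Zbtb20 to −1.73 for Zbtb17, library totals shift every gene to the left, and the offset moves long genes left and several short ones right.

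Of 8 factors grouped here for roles in lymphoid or myeloid cells, not always their best known, 2 were enriched (Zbtb7a and Zbtb7b). Of the others, 2 were depleted (Zbtb17 and Zbtb24), 3 not called and 1 not tested. With 7 tested, these shares were near those of all genes (28.9% enriched and 33.6% depleted). Zbtb1, which lymphocytes need to develop, stood at 36.0, 43.4 and 25.8 CPM in the IP libraries against 31.1, 25.2 and 25.8 in total RNA, with overlapping groups (0.36 ± 0.20, SE). It was called without IP replicate 3, at 0.47, and turned to −0.08 with library totals alone and −0.26 with the length offset. Zbtb46, a marker of classical dendritic cells, rested on 81 IP and 65 total RNA reads (1.01 ± 0.70, SE). Zbtb32, an NK and plasma cell factor, rested on 52 and 113 reads (−0.44 ± 0.85, SE), and 37 of the 52 lay in IP library 1. The last value went from −1.74 without IP replicate 1 to 0.15 with the offset for gene length.

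Zbtb16, Zbtb7c and Zbtb9 had too few reads to be tested. Zbtb16 (PLZF), the factor of innate-like T cells, had 38, 0 and 4 reads in IP libraries 1, 2 and 3 and 2, 1 and 2 in total RNA. The reads of IP library 1 alone set it apart. Zbtb7c had 1 read over the IP libraries and 2 over those of total RNA. Zbtb9 had 0 reads in all libraries, where up to 3 reads per library would be within counting error if counts were independent. Even numbers made up 58.6% to 68.7% of the small counts in each library, so single counts may not be independent.

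The 14 tested members without a call had log2 fold changes of −0.55 to 1.01. In 12 of them the groups overlapped. Zbtb34 and Zbtb2 did not overlap and still were not called, at 0.41 ± 0.21 and 0.13 ± 0.15 (SE). Zbtb41, with 76.1, 110 and 72.9 CPM against 75.7, 62.4 and 57.8, was called by DESeq2 at 0.45. With library totals alone Zbtb34, Zbtb41 and Zbtb2 turned to −0.03, −0.03 and −0.30. Zbtb11 was called depleted with library totals alone (−0.76) and with the length offset (−0.62), and under that offset Zbtb25 was called enriched (0.51) and Zbtb40 depleted (−0.36). A missing call does not show that a transcript was equal in IP and total RNA.

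Scaled by exon length, the members' levels in total RNA ranged from 0.0452 CPM per kb for Zbtb46 to 20.1 ± 2.78 for Zbtb7a (SD, n = 3), among those tested. Zbtb22 followed at 13.8 ± 0.555 CPM per kb. Zbtb18, Zbtb14, Hivep1 and Zbtb4 came next, at 8.67 ± 0.392, 8.42 ± 0.374, 8.09 ± 1.07 and 8.03 ± 0.671 CPM per kb, and did not differ beyond their spread. Zbtb20 and Hivep3, first in fold change, were among the lower levels in total RNA, at 1.05 ± 0.251 and 0.943 ± 0.180 CPM per kb, and Zbtb37 lower still at 0.423 ± 0.00977. In the IP, Zbtb7a stood highest at 117 ± 18.4 CPM per kb, then Zbtb4 at 33.7 ± 2.16 and Hivep1 at 25.5 ± 6.97. Zbtb20 reached 9.36 ± 2.51 and Hivep3 8.26 ± 1.53 CPM per kb there. The length is that of all annotated exons merged, 30730 bases in Zbtb20, so a gene that uses only some of its exons has too low a value on this scale.

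**Figure D3:**
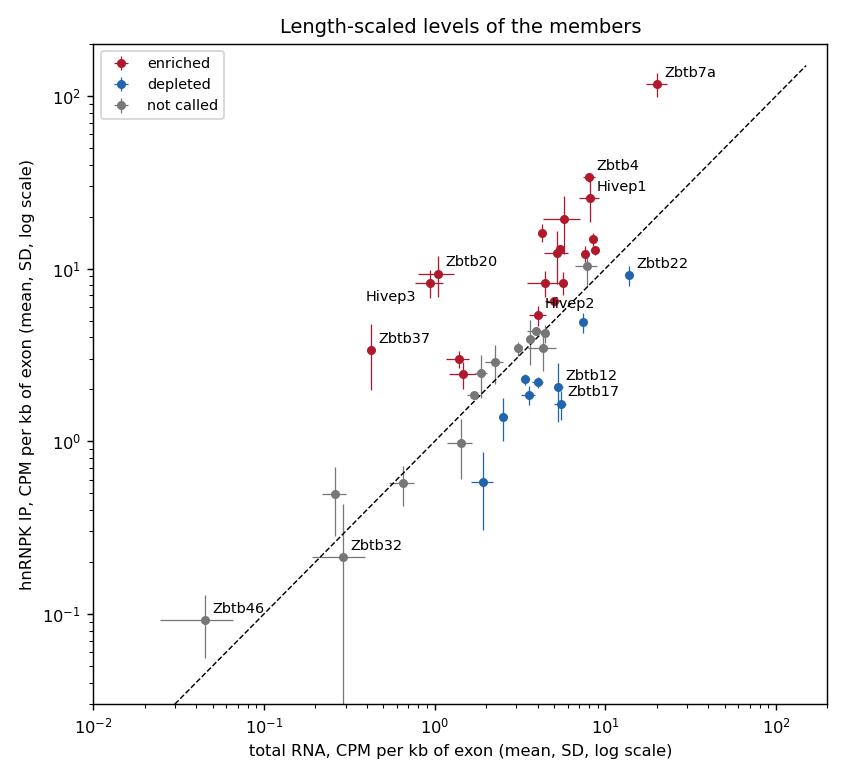
Mean level in CPM per kb of merged exon in total RNA (x axis) and in the IP (y axis), both on log scales, with SD bars over 3 libraries and a dashed line of equality, for the 42 tested members. Zbtb7a lies highest on both axes, while Zbtb20, Hivep3 and Zbtb37 lie well above the line at low levels in total RNA.

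Length of the 3' UTR moved with the fold change among the members. Over the 40 tested zinc finger members Spearman's rank correlation between the longest annotated 3' UTR and the log2 fold change was 0.66, and over all 13410 tested genes with a 3' UTR it was 0.47. The genes of such a correlation share the same 6 libraries and are not independent replicates. With a boundary of 3000 bases, chosen after the values were seen, 10 of 16 members with longer 3' UTRs were enriched, none depleted and 6 not called. Of the 24 with shorter ones 8 were enriched, 8 depleted and 8 not called. Over all tested genes 60.7% of those with a 3' UTR of at least 3000 bases were enriched and 13.8% depleted, against 25.0% and 41.5% of the others. The median log2 fold change was 1.12 and −0.13 in the 2 classes of members, and 0.86 and −0.36 in those of all genes. Among the several exceptions to this pattern were Hivep1, enriched with 513 bases, and Zbtb1, not called with 9567.

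Among the members, other features moved less with the fold change than 3' UTR length did. The rank correlation was 0.57 for merged exon length and 0.19 for coding length (n = 40), against 0.29 and 0.27 over all tested genes. For the share of C in the 3' UTR it was −0.12 (n = 39), and 0.16 over all tested genes. For CCCC per kb of 3' UTR it was 0.25, and for the highest count of C in runs of at least 3 within 24 bases 0.38, against 0.31 and 0.47 over all genes. Over all genes the count of C in runs thus moved with the fold change as much as 3' UTR length did (0.47). For AAAA per kb it was 0.39, against 0.04. The number of C2H2 pattern matches had a rank correlation of −0.09 with the fold change. With the offset for gene length in the fit, the rank correlation between 3' UTR length and the members' fold changes was 0.49, and 29 of the 40 had a lower value than without it.

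**Figure D4:**
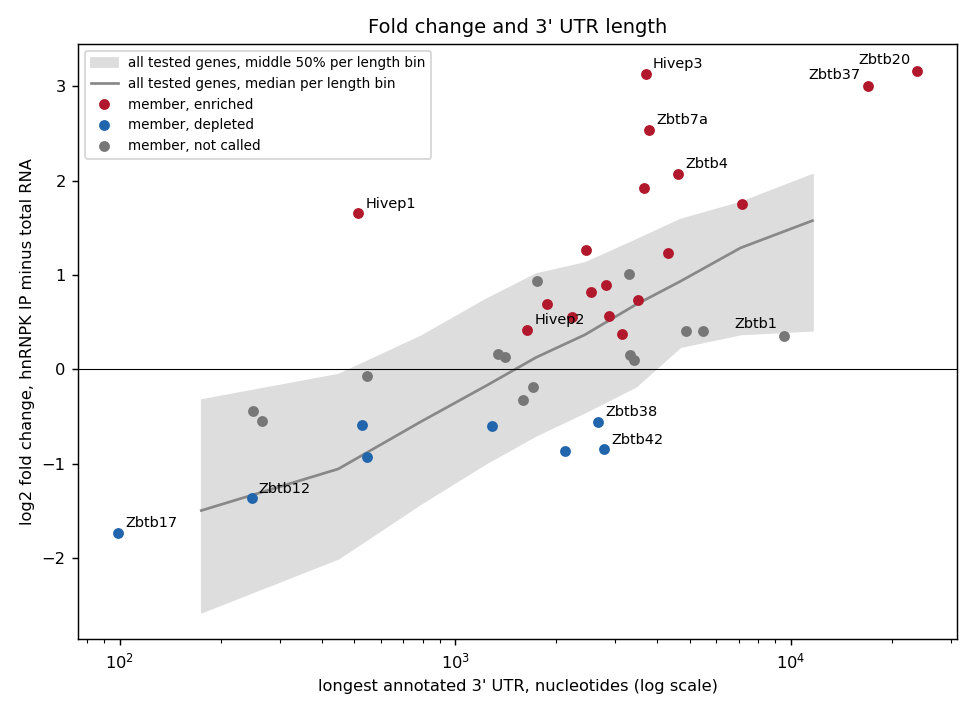
Log2 fold change (y axis) against the longest annotated 3' UTR in nucleotides (x axis, log scale) for the 40 tested zinc finger members, coloured by call, with the median and middle 50% of all tested genes per length bin in grey. Hivep3, Zbtb7a, Zbtb4 and Hivep1 are among the members above the grey band. Zbtb20 and Zbtb37 lie to the right of its end at 11600 bases, and Zbtb17 at 99 bases lies lowest.

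The IP libraries differed from each other in an order that many members shared. In 13 of the 18 enriched zinc finger members IP library 2 was the highest IP library, and in 16 IP library 3 was the lowest. Over all 4892 enriched genes library 2 was highest in 52.4% and library 3 lowest in 2411. Among the 14 uncalled members library 2 was highest in 9 and library 3 lowest in 11. Over all 16929 tested genes library 2 was highest in 36.8% and library 3 lowest in 5019. Among the 8 depleted members library 2 was highest in 2 and lowest in 4, much as over all 5680 depleted genes (highest in 22.2%, lowest in 3021). The log2 ratio of IP library 2 to IP library 3 had a rank correlation of 0.65 with merged exon length over the 40 members and 0.25 over all tested genes. In total RNA, library 1 was the highest in 13 of the 18, and in 53.1% of all enriched genes. Spread on the log2 scale was larger in the IP than in total RNA for 33 of the 40 members. This was no trait of the members. Their median SD was 0.25 in the IP and 0.12 in total RNA, and that of all tested genes 0.28 and 0.13. Without IP replicate 2, 19 members were enriched and 9 depleted, the same numbers as with all libraries, and the median log2 fold change was 0.26. Of all 17667 genes tested in that fit, 5181 were enriched and 6201 depleted.

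The genes around the family went both ways too, beside 28.9% of all genes enriched and 33.6% depleted. Of 8 BTB zinc finger genes with other names, 3 were enriched and 1 depleted. Patz1 (1.29 ± 0.14, SE), Mynn (0.75 ± 0.09) and Hic2 (0.49 ± 0.27, not called) had the highest values with at least 5 CPM. Gzf1 (0.03 ± 0.12) and Bcl6b (−0.18 ± 0.13) were not called and Zfp131 was depleted (−1.18 ± 0.11). Of 14 corepressor and ubiquitin ligase genes whose products meet BTB domains, 7 were enriched and 6 depleted. The corepressor Rcor1 (1.93 ± 0.14, SE) and the deacetylase Hdac7 (1.63 ± 0.16) were among the highest. Sin3b (−0.67 ± 0.09), Hdac2 (−1.95 ± 0.14) and Rbx1, the RING subunit that works with Cul3 (−2.45 ± 0.14), were lowest.

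Of 12 NF-kB and Smad pathway genes near the Hivep factors, 11 were tested, 7 enriched and 4 depleted. The NF-kB subunit Rel (2.24 ± 0.22, SE), the BMP mediator Smad5 (1.74 ± 0.17) and the ligand Tgfb1 (1.66 ± 0.09) were highest. Relb (−0.96 ± 0.13), the adaptor Traf2 (−1.20 ± 0.18) and the NF-kB inhibitor Nfkbia (−2.49 ± 0.19) were lowest, and Runx2 had too few reads. Over the 33 partner genes tested, the median log2 fold change was 0.47, with 17 enriched and 11 depleted, and 11 and 14 with library totals alone. With library totals alone 20.4% of all genes were enriched and 43.0% depleted, so the depleted share of the partners was near that of all genes in both. For comparison among zinc finger genes, 93 of 340 tested Zfp genes were enriched and 95 depleted (median −0.12), and 15 of 19 Klf and Sp genes were enriched and 0 depleted (median 1.12), all in the same fit.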

How the data were processed

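RNA sequencing libraries, 3 of hnRNPK IP and 3 of total RNA, were grouped by their titles. The authors' deposited files hold raw read counts per Ensembl gene, made from TopHat2 accepted hits per the file headers. Per the submitters' processing notes, reads were aligned to mm10 with TopHat2 and counted with featureCounts. Not given in the sources used here are tool versions, the gene models counted, strandedness and how multiply aligned reads were handled. Symbols, coordinates and transcript sequences came from GENCODE M21 (GRCm38), which matched 53274 of 53379 identifiers. Members and lists were chosen with earlier results of these data known. Counts were fitted over all genes in R 4.3.3 with edgeR 4.0.16 (TMM, filterByExpr with minimum count 10 and minimum total 15, glmQLFit and glmQLFTest on group), with SE taken as the size of the log2 fold change over the root of F. The fit was tested on simulated data with 200 changed genes, far fewer than were called here. That test therefore cannot check the scaling or the calls where so many genes change. Alternatives used DESeq2 1.42.0, limma-voom (limma 3.58.1), other scalings, no filter, halved counts, an offset for gene length (lowess of each library's deviation on log2 merged exon length, span 0.3), a replicate block and each library left out. No library pair of a group agreed within sampling noise (chi-square over its degrees of freedom 6.08 to 113). Genes named in the text are the Hivep genes, the 8 highest and 8 lowest Zbtb genes with at least 5 CPM, 16 members taken for their roles, and from each partner list the 3 highest and 3 lowest, of which 1 is not reported here. Other members carry short values and were named after these were seen.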

Additional observations from a re-analysis of the deposited data

How the results depend on the processing

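Of the 28 called members, 18 kept direction and call in all 14 refits, and 2 of the 14 uncalled members stayed uncalled with the same sign in all of them. With library totals alone, 12 members and 11 partner genes were enriched, and the members' median log2 fold change turned to −0.031. Hivep2 changed sign under library totals, at −0.017 and not called, and under the offset for gene length, at −0.24 and called depleted. Requiring at least 2-fold left 11 enriched, 3 depleted and 28 uncalled members, and 10 enriched and 5 depleted partner genes, by construction. Leaving out 1 library at a time gave 17 to 19 enriched and 7 to 9 depleted members and a median of 0.26 to 0.53. Over all genes these fits called 4242 to 5181 enriched and 4714 to 6201 depleted, of 17642 to 17759 tested. The cause of the other changes was not tested. The count of members whose groups did not overlap was recomputed for library totals and for the fits without 1 library only, at 30 to 34. With a library left out, groups separate more easily by construction. The share over all genes was not computed for these fits, so this range does not show stability. The labels do not say whether replicate numbers pair the libraries. Same-numbered IP and total RNA libraries had deviations correlated at 0.000874, −0.0709 and 0.120, and not every library correlated best with its own number. With so few libraries, each noisy, such correlations cannot decide whether same-numbered libraries share a culture. With the replicate block, the family had 19 enriched and 9 depleted members (median 0.38), where 4384 and 5364 of all 16929 genes were called. Members with under 10 reads in most libraries, Zbtb16, Zbtb7c and Zbtb9, are below what this depth can test.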
